A study of Mus musculus with 22 samples.

Results

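Growth hormone, released from the pituitary, acts on the liver through the receptor encoded by Ghr, the kinase Jak2 and the transcription factor encoded by Stat5b. Activated STAT5 raises the transcription of Igf1, the main circulating mediator of growth, of Igfals, whose product holds the hormone in its serum complex, and of feedback inhibitors such as Socs2 and Cish. In rodents males release the hormone in pulses and females more steadily, and this pattern keeps many liver genes at different levels in the sexes, with Bcl6 and Cux2 as transcriptional repressors in males and females respectively. The 10 genes described here comprise the receptor (Ghr), the signal transducer (Stat5b), both repressors (Bcl6, Cux2), the feedback inhibitor (Socs2), the circulating hormone and its partner (Igf1, Igfals) and 3 male-biased targets (Hsd3b5, Elovl3, Mup3). They were listed by name as members of this pathway, several of them for large differences between trisomic and euploid liver, out of 15780 genes with a symbol on the array. A probe set was at hand for 9 of the 10, and Socs2 was not analysed here.

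Their levels were read in 22 arrays of RNA from male mice aged 2 months. Males named Ts43H are trisomic for the proximal part of chromosome 17. The controls were euploid siblings named t121/D17. The labels name no other allele. Nothing in them tells if replicate arrays stand for different mice, so p-values measure the spread between these arrays, which may be technical. Per genotype, liver gave 3 arrays, mid-late-pachytene spermatocytes 2, spermatids 3 and pre-mid-pachytene spermatocytes 3, the germ cells being sorted by flow cytometry from testis. Values are GCRMA intensities on the log2 scale, here called levels, and levels below 3 are called the background range. Because the members were picked partly on the liver arrays, their liver values are given as a description without a test. Tests are given for germ cells and for other genes of the pathway, all of which were listed with earlier results of these arrays known.

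The liver arrays carried liver RNA by their markers. Marker sums are the log2 of the added unlogged intensities, so the brightest genes of a list weigh most. The sum of 9 hepatocyte markers lay between 19.23 and 19.33 in euploids and between 19.25 and 19.32 in trisomics. The 10 Kupffer cell markers summed to 11.38 to 12.04 and 11.69 to 11.90, 7 endothelial markers to 12.47 to 12.66 and 11.98 to 12.72, and 5 bile duct markers to 6.66 to 6.96 and 6.78 to 7.21. Sums of 9 stellate cell markers were higher in trisomics (13.93 to 14.07 against 13.60 to 13.73). The brightest of these were Dcn (euploid and trisomic means 13.13 and 13.29) and Col3a1 (11.54 and 12.38). By their means Lrat (9.14 and 8.86), Col1a1 and Rgs5 were lower in trisomics and the other stellate markers higher. Sums of 7 blood cell markers were lower (10.88 to 11.69 against 12.36 to 13.02). Of these Slc4a1, Cd3e, Ms4a1, S100a8 and S100a9 were in the background range on all liver arrays. So were Marco and Cd68 of the Kupffer list, Pecam1 and Cdh5 of the endothelial list and Cldn7 of the bile duct list. Most of the blood sum was Alas2, an erythroid enzyme of haem synthesis, with 12.91, 12.27 and 12.96 in euploids and 11.45, 10.54 and 11.54 in trisomics. The leukocyte marker Ptprc, in contrast, had means of 8.21 and 8.49. Their part in the results below was not tested, and in whole liver fewer cells of a type and less RNA per cell cannot be told apart. Of 10 germ cell markers 5 were in the background range on all liver arrays. Sycp3 was lower in trisomics without overlap (5.00 against 6.03), Tnp1 read 3.99 to 6.46, and Prm1 and Prm2 read 7.09 and 4.59 on euploid array 1 and at most 2.97 and 2.51 on the others.

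STAT5 binds the palindrome TTCNNNGAA, which reads the same on both strands, and the members' promoters are shown to place this motif among genes that differed in their liver values. RefSeq windows of 300 bases (GRCm38.p6, 250 bases before to 50 after a transcript start) were at hand for 8 of the 10 members, in 14 windows. Bcl6 and Igfals held the motif, in 2 of 2 and 2 of 3 windows. Of all 32851 RefSeq windows, 8.3% held it, and of all genes with a window 9.55%. The motif is in capitals in the sequences that follow, which are written along the gene's strand. The Bcl6 window at chr16:23981234-23981533 (minus strand) held 3 copies, whose first bases lie 168, 122 and 88 bases before the start, in a gene that differed widely between liver arrays. The Igfals window at chr17:24877981-24878280 (plus strand) held 1 copy, 58 bases before the start, in a gene of steady liver level. The Hsd3b5 window at chr3:98645485-98645784 (minus strand), from the member with the widest range in liver, held none.
Bcl6: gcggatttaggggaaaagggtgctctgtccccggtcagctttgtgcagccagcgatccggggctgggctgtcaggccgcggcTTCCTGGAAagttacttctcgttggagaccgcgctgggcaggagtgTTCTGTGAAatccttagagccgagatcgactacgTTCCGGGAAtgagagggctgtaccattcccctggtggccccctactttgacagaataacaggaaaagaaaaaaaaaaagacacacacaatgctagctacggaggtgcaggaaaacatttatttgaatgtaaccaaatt
Igfals: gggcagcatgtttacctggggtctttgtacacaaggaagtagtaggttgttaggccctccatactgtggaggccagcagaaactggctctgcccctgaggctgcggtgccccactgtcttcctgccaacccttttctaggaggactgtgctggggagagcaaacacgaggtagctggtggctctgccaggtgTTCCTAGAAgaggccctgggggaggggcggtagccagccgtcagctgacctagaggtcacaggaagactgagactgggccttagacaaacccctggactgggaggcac
Hsd3b5: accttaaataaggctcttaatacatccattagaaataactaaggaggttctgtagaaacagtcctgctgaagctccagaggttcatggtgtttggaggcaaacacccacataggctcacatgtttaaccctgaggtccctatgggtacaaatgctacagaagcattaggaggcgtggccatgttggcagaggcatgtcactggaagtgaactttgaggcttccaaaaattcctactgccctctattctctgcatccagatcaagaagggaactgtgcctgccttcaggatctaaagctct

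Receptor and transducer had nearly the same level in both genotypes. Ghr, on chromosome 15 (chr15:3317755-3583352), had levels of 11.65, 11.51 and 11.49 on euploid arrays 1 to 3 and of 11.56, 11.74 and 11.74 on the trisomic ones. The groups overlapped, and their means were 11.55 ± 0.09 and 11.68 ± 0.10 (SD, n = 3 each), a difference of 0.13. Stat5b (chr11:100780731-100859004) read 8.49, 8.55 and 7.73 in euploids and 8.32, 8.40 and 8.61 in trisomics. Euploid array 3 was the lowest of the 6, and the means of 8.26 ± 0.45 and 8.44 ± 0.15 (SD, n = 3 each) differed by 0.19, less than the euploid SD.

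**Figure D1:**
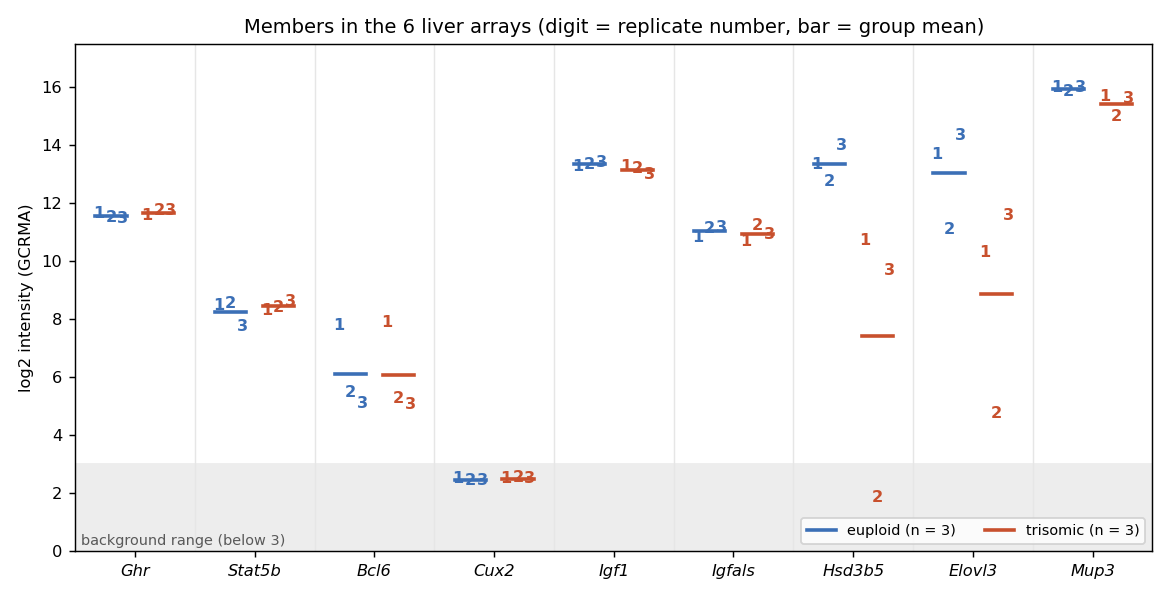
Log2 intensity of the 9 measured members on the 6 liver arrays; digits are replicate numbers, blue euploid and orange trisomic, bars are group means of 3 arrays and grey is the background range below 3. Hsd3b5 and Elovl3 spread from 1.83 and 4.75 on trisomic array 2 to 13.99 and 14.36 on euploid array 3, while Ghr, Igf1 and Igfals each stayed within 0.54.

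Of the other genes of growth hormone signalling in a list of 22, 15 non-members were on the array and 12 had a liver mean of at least 4 and were tested. None passed limma on the 6 liver arrays at an adjusted p of 0.05 (19 of 8180 genes passed, 0.232%). At an unadjusted p under 0.05, 3 of the 12 were lower and 0 higher, against 7.47% lower and 8.88% higher among all genes tested. These 3 of the 12 were also the ones whose genotypes did not overlap, a share near the 23.1% of all genes tested. Without trisomic array 2 there were 5 such genes, beside 32% of all genes. Irs2, an adaptor of insulin and growth hormone receptors, differed by -1.58 (SE 0.22, limma adjusted p = 0.0637), with levels of 7.18, 7.76 and 7.44 in euploids and 5.89, 5.58 and 6.17 in trisomics. Pik3r1, the regulatory subunit of phosphoinositide 3-kinase, differed by -1.89 (SE 0.39, adjusted p = 0.107). Ptpn6, a phosphatase that dampens JAK-STAT signalling, differed by -0.55 (SE 0.21, adjusted p = 0.27). With 1 spread over all 22 arrays Irs2 (adjusted p = 3.89e-06) and Pik3r1 (6.33e-05) passed downward and no other gene of the list did (781 of 8180 genes passed, 9.55%).

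The kinase Jak2 had means of 6.64 ± 0.52 and 6.16 ± 0.11 in euploid and trisomic liver (SD, n = 3 each, adjusted p = 0.426). Stat3, a related factor used by cytokines, had 11.44 ± 0.43 and 11.38 ± 0.24 (adjusted p = 0.934), and the inhibitor Socs3 5.56 ± 0.52 and 5.28 ± 0.63 (adjusted p = 0.778). Stat5a, the close relative of Stat5b, and Socs1 were not tested, with liver means between 2.85 and 3.17 and at 1.68. The median difference of the 12 tested genes was -0.29, against -0.01 over all genes tested.

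Igf1 was slightly lower in trisomics, Igfals overlapped between the genotypes, and Igfbp3 and Igf2r were higher without overlap. Igf1 (chr10:87858265-87937047) had levels of 13.28, 13.34 and 13.42 in euploids and 13.26, 13.21 and 13.002 in trisomics. All trisomic arrays lay below all euploid ones, although array 1 of the genotypes differed by only -0.03. The means of 13.35 ± 0.07 and 13.16 ± 0.14 (SD, n = 3 each) differed by -0.19, a fold of 0.876. Of the 9 measured members, 3 lay lower in trisomics without overlap, 0 lay higher and 6 overlapped. Over all genes tested 11.3% lay lower, 11.8% higher and 23.1% either way without overlap, and since liver values chose members nothing is read from that count.

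Igfals (chr17:24877844-24882011) lies inside the trisomic segment, set here to the first 30 Mb of chromosome 17. Its levels were 10.83, 11.12 and 11.17 in euploids and 10.69, 11.23 and 10.91 in trisomics. The groups overlapped, and the means of 11.04 ± 0.18 and 10.94 ± 0.27 (SD, n = 3 each) differed by -0.10, or by 0.025 without trisomic array 1 and by -0.24 without trisomic array 2. The 144 segment genes with a liver mean of at least 4 had a median difference of 0.67, with quartiles of 0.41 and 0.97. Of these 144 genes, 8, Igfals included, had a difference as low as or lower than that of Igfals. Igf2r, the receptor that clears IGF2 and also a segment gene, read 8.37, 8.33 and 8.85 in euploids and 9.33, 9.70 and 9.95 in trisomics. Its difference of 1.14 (SE 0.22, limma adjusted p = 0.0959) did not pass on the liver arrays and passed with 1 spread over all 22 arrays (adjusted p = 0.00132).

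**Figure D2:**
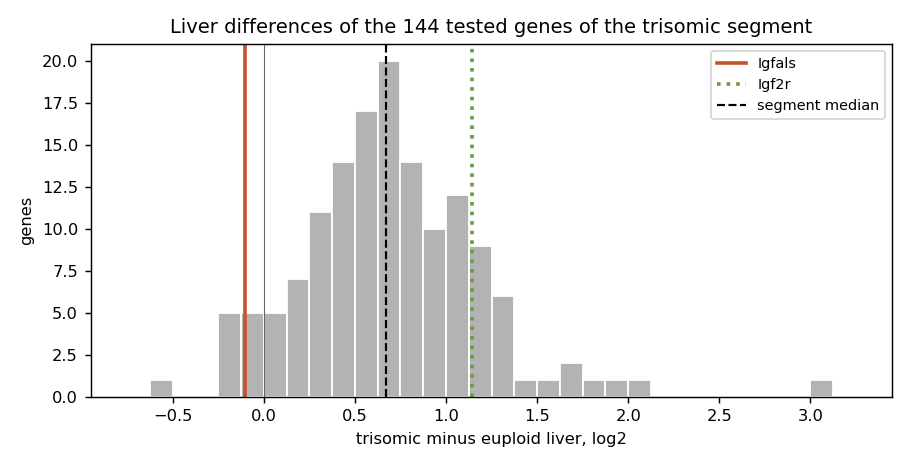
Histogram of the trisomic minus euploid difference in liver (log2) over the 144 tested genes of the trisomic segment, with lines at Igfals, at Igf2r and at the median of the segment. Igfals, at -0.10, lies below the lower quartile of 0.41 and the median of 0.67, while Igf2r lies at 1.14.

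The serum binding proteins of IGF1 were read beside it. Of 13 genes of the IGF axis, 11 were non-members on the array and 6 were tested. In limma 0 of the 6 passed, and 3 were higher at an unadjusted p under 0.05 and 0 lower. Among all genes tested 8.88% were higher and 7.47% lower at that p. Igfbp3, the main carrier in the complex with the Igfals product, had means of 8.65 ± 0.32 and 9.17 ± 0.17 (SD, n = 3 each) without overlap, a difference of 0.52 (adjusted p = 0.279, or 0.0184 with the spread of all 22 arrays). Igfbp2 read 14.74, 13.23 and 13.68 in euploids and 14.70, 14.78 and 15.17 in trisomics, where euploid array 1 lay among the trisomic values (difference 1.003, adjusted p = 0.281). Igfbp4 was lower without overlap, by -0.20 (adjusted p = 0.503). Igfbp1, which is raised when insulin is low, had 12.41 ± 0.80 and 12.35 ± 0.94 (SD, n = 3 each). The receptors Igf1r and Insr and the fetal hormone Igf2 had liver means below 3 in both genotypes. The median difference of the 6 tested genes was 0.29.

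Neither repressor separated the genotypes. Cux2 (chr5:121857962-122050415), which is normally high in female liver, stayed in the background range on all 6 arrays. Its levels were 2.51, 2.43 and 2.43 in euploids and 2.49, 2.52 and 2.49 in trisomics, a range of 0.09. Tox, another female-biased nuclear factor, chosen after its values were seen, had means of 3.31 ± 0.02 and 3.33 ± 0.02 (SD, n = 3 each).

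Bcl6 (chr16:23965050-23988866) read 7.77, 5.48 and 5.07 in euploids and 7.87, 5.25 and 5.05 in trisomics. Array 1 of each genotype was high and the other 4 arrays were low, so that equal replicate numbers differed by 0.11, -0.22 and -0.02 while arrays within a genotype differed by more than 2. The means of 6.11 ± 1.45 and 6.06 ± 1.58 (SD, n = 3 each) differed by -0.05. The low arrays read about as Bcl6 did in germ cells, where it lay between 4.35 and 5.57 on 16 arrays.

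Cish, an inhibitor that STAT5 induces, ran opposite to Bcl6. It read 3.91, 9.98 and 10.997 in euploids and 4.52, 10.54 and 7.83 in trisomics, lowest on array 1 of each genotype. Over the 6 liver arrays its correlation with Bcl6 was r = -0.92, and it was among the 5 most opposite of 625 genes that had a liver mean of at least 4 and a range of at least 2. The other 4 were Foxq1 (-0.97), Zfp354a (-0.96), Slc16a10 (-0.94) and Lage3 (-0.93), and the 5 most alike were Hspa1a (0.93), Zfp119b (0.90), Tnp1 (0.88), Zfy2 (0.87) and Icam2 (0.86). Bcl6 was chosen for this ranking after its values were seen, and the 6 points share their arrays and 2 of them carry the pattern, so the coefficients are a description only. The heat shock gene Hspa1a was thus high where Bcl6 was high. Tnp1, a spermatid gene, read 6.46 and 6.45 on array 1 of the genotypes, and Prm1 7.09 and 2.91, and the part of germ cell RNA in the Bcl6 pattern was not tested. Onecut1, the liver factor HNF6, chosen after its values were seen, read 6.38, 9.38 and 10.24 in euploids and 6.50, 7.54 and 4.19 in trisomics. Array 1 was the lowest of the euploids and the middle value of the trisomics, and the correlation with Bcl6 was -0.28 over the 6 arrays (difference -2.59, SE 1.22, limma adjusted p = 0.359).

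**Figure D3:**
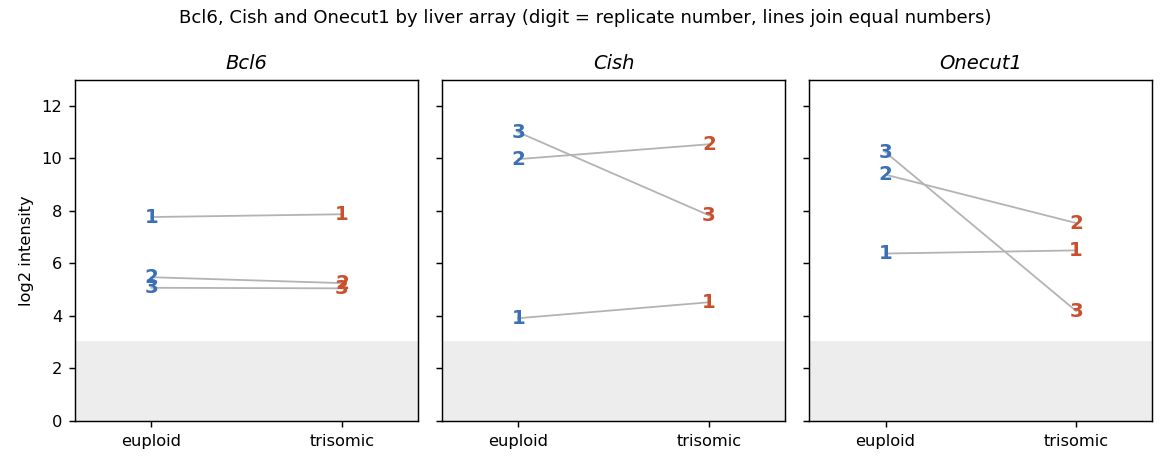
Log2 intensity of Bcl6, Cish and Onecut1 on the 6 liver arrays; digits are replicate numbers and lines join arrays of equal number. Array 1 of each genotype is high for Bcl6 (7.77 and 7.87) and low for Cish (3.91 and 4.52), and for both genes the genotypes overlap.

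Of the 12 other tested genes of a list of transcriptional regulators linked to this pathway, 0 passed in limma. At an unadjusted p under 0.05 there were 1 higher and 1 lower, beside 8.88% and 7.47% of all genes tested. Trim24, a nuclear receptor cofactor, was the 1 gene without overlap (8.57 ± 0.22 and 9.17 ± 0.32, SD, n = 3 each, adjusted p = 0.246). The median difference of the list was -0.36.

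The male-biased targets showed the widest differences, and trisomic array 2 was the farthest out in each. Hsd3b5 (chr3:98618636-98645534), a 3-ketosteroid reductase gene of adult male liver, read 13.33, 12.77 and 13.99 in euploids and 10.72, 1.83 and 9.69 in trisomics. The groups did not overlap, and trisomic array 2 was in the background range, at the level of germ cells (1.84 to 1.94). The means were 13.36 ± 0.61 and 7.41 ± 4.86 (SD, n = 3 each), and the difference of -5.95 was -3.16 without trisomic array 2.

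Elovl3 (chr19:46131897-46135694), an elongase of very long chain fatty acids, read 13.69, 11.09 and 14.36 in euploids and 10.29, 4.75 and 11.58 in trisomics. Trisomic array 3 lay above euploid array 2, so that the groups overlapped. The means of 13.05 ± 1.72 and 8.87 ± 3.63 (SD, n = 3 each) differed by -4.17, and by -2.11 without trisomic array 2. Mup3 (chr4:62083476-62087317), a major urinary protein that carries pheromones, read 16.002, 15.84 and 16.01 in euploids and 15.70, 14.99 and 15.61 in trisomics. The groups did not overlap, and the means of 15.95 ± 0.09 and 15.43 ± 0.39 (SD, n = 3 each) differed by -0.52, or by -0.30 without trisomic array 2. Mup3 lies near the upper end of the scale, which reached 16.75, and the Mup genes are near-identical copies, so its probes may read several of them. Hsd3b5 too has close relatives, of which Hsd3b2, chosen after its values were seen, had 9.96 ± 0.18 and 9.96 ± 0.24 (SD, n = 3 each).

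Equal replicate numbers gave lower trisomic values of all 3 targets in all 3 pairs. For Hsd3b5 and Mup3, whose genotypes did not overlap, any pairing would give this. Members were also picked partly on these liver values, so the pairs are a description only. For Hsd3b5 the pairs differed by -2.61, -10.94 and -4.30, for Elovl3 by -3.41, -6.34 and -2.77, and for Mup3 by -0.30, -0.85 and -0.40. Across the 6 arrays the non-member genes most like Hsd3b5 were Slco1a1 (r = 0.99), a sodium-independent organic anion transporter, Cyp4a12a (0.98), Lrp11 (0.97), Elk3 (0.97) and Dnase1l1 (0.96), among the same 625 genes. Without trisomic array 2, the lowest for both, the correlation of Slco1a1 with Hsd3b5 was 0.97 over 5 arrays. The points share their arrays, and the coefficients are a description.

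Other genes whose liver level depends on sex and growth hormone were taken from 2 lists. Of 32 male-biased genes 29 were non-members, of which 19 were on the array and 18 were tested. The trisomic arrays lay below the euploid ones without overlap in 13 of the 18 and above them in 0, beside 11.3% and 11.8% of all genes tested. Over all 19 on the array, with no minimum mean, these counts were 13 and 0, beside 14.8% of all genes either way. In limma 1 of the 18 passed downward and 0 upward, beside 0.0611% and 0.171% of all genes. That gene was Serpina12, the serpin vaspin, which fell by 4.86 (SE 0.45, adjusted p = 0.0242). Its levels were 7.23, 7.86 and 9.03 in euploids and 3.11, 3.45 and 2.98 in trisomics. The trisomic mean of 3.18 lies close to the background range, so the fitted difference is taken against a near-background reading. Serpina12 reached the minimum mean, and so was tested, only through the euploid arrays. It did not pass with equal replicate numbers as a block (adjusted p = 0.0797), without euploid array 2 (0.0763), or without any 1 of the trisomic arrays (0.104 to 0.116). Ugt2b38, a glucuronosyltransferase, differed by -5.54 (SE 1.23, adjusted p = 0.121) and passed with the block (adjusted p = 0.0426). Serpina4-ps1 differed by -6.65 (adjusted p = 0.101) and Slco1a1 by -4.65 (adjusted p = 0.364), the latter reading 12.39, 11.39 and 12.85 in euploids and 10.70, 2.03 and 9.97 in trisomics. The median difference of the 18 genes was -0.90, and that of all 19 was -0.87.

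Of 35 female-biased genes 34 were non-members, of which 25 were on the array and 21 were tested. Over all 25, with no minimum mean, the trisomic arrays lay above the euploid ones without overlap in 16 and below them in 0, beside 14.8% of all genes either way. The same 16 stood among the 21 tested, of which 6 had a euploid mean below 4 and reached the minimum through the trisomic arrays, so that the count over the 21 is raised by the filter. In limma 2 of the 21 passed upward and 0 downward, beside 0.171% and 0.0611% of all genes tested. Sult1e1, which inactivates oestrogens by sulfation, rose from 2.28, 2.70 and 2.25, in the background range, to 9.55, 10.31 and 10.14 (adjusted p = 0.000273). It was tested only through its trisomic level, and the fitted difference of 7.59 (SE 0.24) is taken against a background reading, not a measured level. The same holds for Cyp2b13 and Hao2, with euploid means of 1.84 and 2.49. Lpl, the lipoprotein lipase, rose by 3.65 (SE 0.26, adjusted p = 0.0127), from 9.23, 8.41 and 9.26 to 12.47, 12.76 and 12.61, and did not pass with the block (adjusted p = 0.0695) or without any 1 of the trisomic arrays (0.0506 to 0.076). Both genes had spreads of at most 0.48 (SD) in each genotype. Cyp2b13 and Cyp2b9, steroid hydroxylase genes with near-identical relatives, differed by 7.79 (SE 1.73, adjusted p = 0.121) and 7.51 (SE 1.70, adjusted p = 0.123). Hao2, a peroxisomal hydroxy acid oxidase, differed by 5.63 (SE 1.25, adjusted p = 0.121). The median difference of the 21 genes was 3.31, and that of all 25 was 2.76. Both lists were chosen with earlier results of these data known.

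With 1 spread over the 22 arrays 11 of the 18 male-biased genes passed downward and 17 of the 21 female-biased ones upward, with 0 the other way in either list (3.78% of all genes passed downward and 5.77% upward). That spread includes germ cell arrays, on which liver genes such as Hsd3b5 lie in the background range and hardly vary. Without trisomic array 2 the genotypes did not overlap in 13 male-biased genes that were lower and 1 that was higher of 18, and in 16 female-biased genes that were higher of 20, beside 32% of all genes either way in that setting. The filter raises the counts in both settings. Of the 21 genes 6 reached the minimum mean through the trisomic arrays, and of the 18 genes 1 through the euploid ones.

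**Figure D4:**
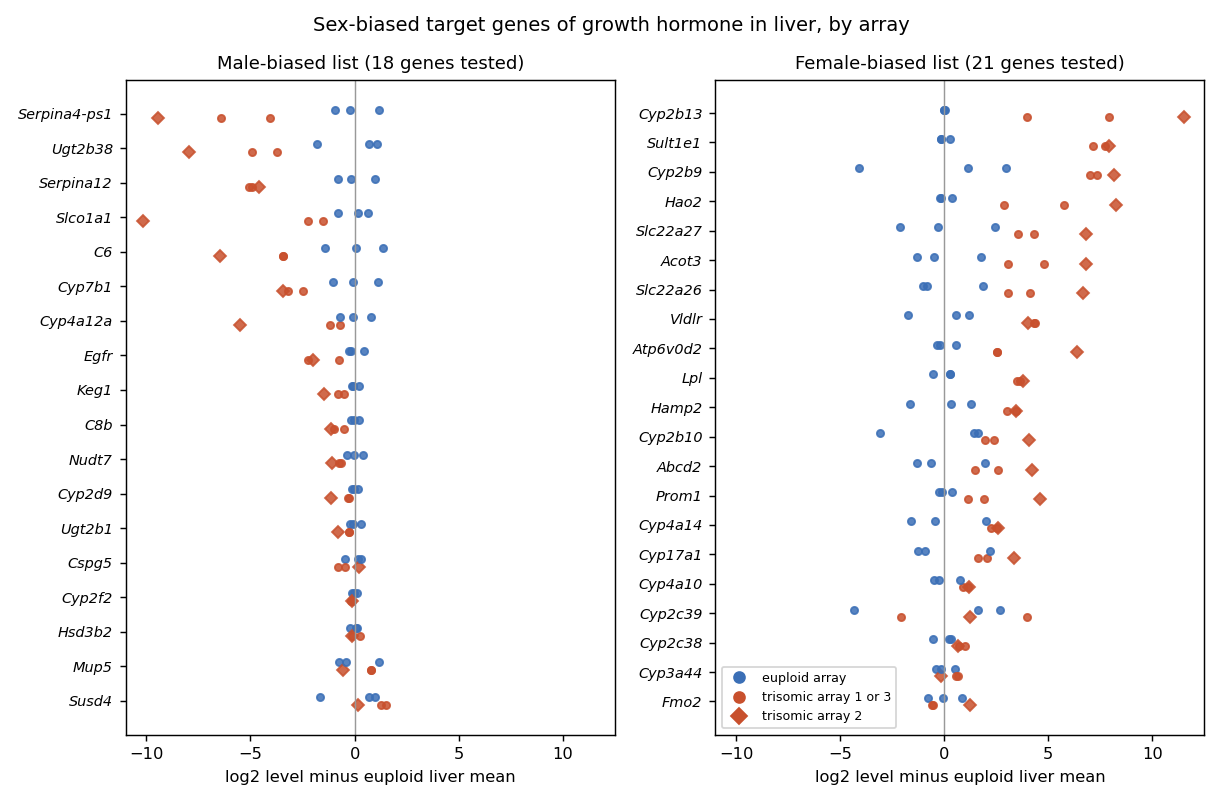
Log2 level minus the euploid liver mean for each tested non-member of the male-biased (left, 18 genes) and female-biased list (right, 21 genes); blue points are euploid arrays, orange points trisomic arrays and diamonds trisomic array 2. Trisomic arrays lie left of the euploid ones in 13 genes on the left and right of them in 16 genes on the right, with array 2 often the outermost.

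The liver arrays also had an order within each genotype. Among the 18 male-biased genes trisomic array 2 was the lowest of the 6 arrays in 11 and euploid array 3 the highest in 14. Among the 21 female-biased genes trisomic array 2 was the highest in 17 and euploid array 3 the lowest in 13. Over all 8180 genes tested trisomic array 2 was the lowest in 14.96% and the highest in 16.1%, and euploid array 3 the lowest in 21.2% and the highest in 22.6%. These shares are not a like baseline for the lists. Where genotypes do not overlap, as in most genes of both lists, the lowest and highest arrays are bound to belong to opposite genotypes. The order is thus a description only. Euploid array 3 also had the highest Hsd3b5, Elovl3, Mup3 and Igf1 of the 6, and trisomic array 2 the lowest Hsd3b5, Elovl3 and Mup3. Other members had other extremes. Euploid array 3 had the lowest Ghr and Stat5b (7.73), and trisomic array 2 the highest Ghr and Igfals (11.23). The lowest Igf1 was on trisomic array 3. Bcl6 had neither extreme on these arrays, and Cux2 lay in the background range. Among 9 hepatocyte markers euploid array 3 was the lowest in 4 and trisomic array 2 the highest in 2, with medians of -0.05 and 0.03 relative to the liver mean. On that scale 8 clock genes had medians of 0.39 on euploid array 3, 0.26 on euploid array 2, -0.02 on euploid array 1 and -0.16 to -0.13 on the trisomic arrays. On the same scale a list of 12 acute phase and inflammation genes had -0.46 on euploid array 3, 0.34 on euploid array 2, 0.55 on trisomic array 2 and -0.52 on trisomic array 3, and the part of these lists in the order was not tested.

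Lipid genes that are known to rise when hepatic growth hormone signalling is low were read as a further list of 10, of which 5 were tested. None passed in limma, 3 were higher without overlap and 0 lower, beside 11.8% and 11.3% of all genes tested. Vldlr, a lipoprotein receptor that also stands in the female-biased list, read 5.37, 6.01 and 3.08 in euploids and 9.17, 8.84 and 9.15 in trisomics (difference 4.23, SE 0.72, adjusted p = 0.0738). The fatty acid translocase Cd36 differed by 2.24 (SE 0.56, adjusted p = 0.14) and the desaturase Scd1 by 0.98 (SE 0.31, adjusted p = 0.212). The 2 tested genes that overlapped were Pparg (difference -0.02) and Plin2 (difference -0.01), chosen after their values were seen. Cidec, Cidea, Mogat1, Plin4 and Fgf21, named so that the list is complete, had liver means below 4 and were not tested. The median difference of the 5 was 0.98.

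In germ cells the members mostly gave background readings. These arrays were part of the table in view when the members were listed, so the tests on them are not independent of that choice. Of the 9 members 6 lay in the background range on all 16 germ cell arrays, namely Ghr, Stat5b, Igfals, Hsd3b5, Elovl3 and Mup3. Cux2 lay there on 15, and its highest value was 3.31 in a euploid spermatid array. Igf1 read 3.23 to 3.55 in the spermatocyte arrays. In spermatids it read 4.68, 4.18 and 3.89 in euploids and 4.10, 3.75 and 3.91 in trisomics, with overlap.

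**Figure D5:**
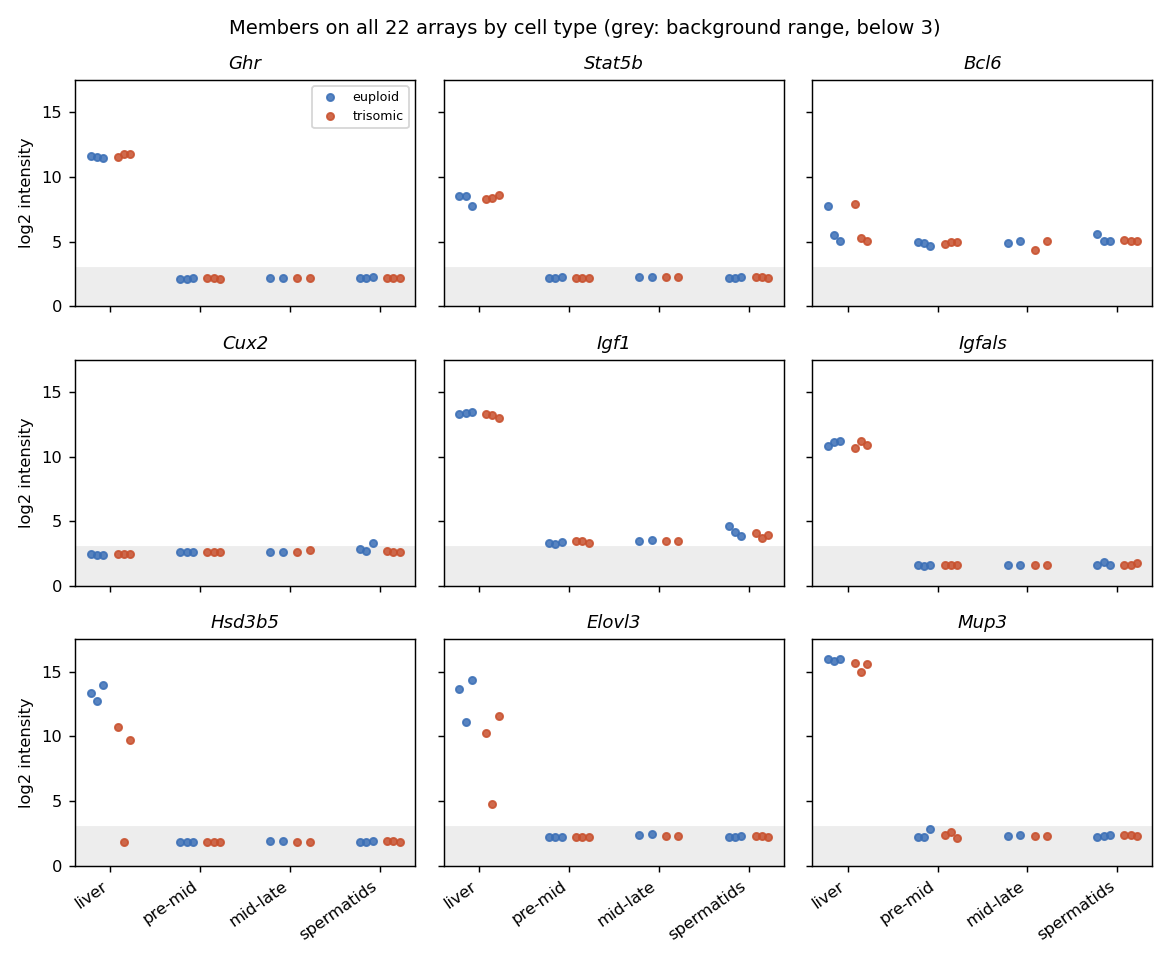
Log2 intensity of the 9 measured members on all 22 arrays by cell type (pre-mid and mid-late are pachytene spermatocytes); blue points are euploid and orange points trisomic arrays, and grey is the background range below 3. Apart from Bcl6, Cux2 and Igf1, the members lie in the grey band on every germ cell array, and all but Cux2 are above it in liver, save Hsd3b5 on 1 trisomic array.

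Only 4 of 27 pairs of a member and a germ cell type had a mean of at least 4 and were tested. None passed in limma on the 16 germ cell arrays, where 0.374% of genes passed in spermatids, 0.532% in the mid-late and 8.5% in the pre-mid-pachytene stage. At an unadjusted p under 0.05 there were 0 of the 4, beside 8.33%, 7.16% and 26.1% of all genes in the same order. The difference of Igf1 in spermatids was -0.33 (95% confidence interval -0.71 to 0.05, adjusted p = 0.713). Those of Bcl6 were 0.10 (-0.30 to 0.50, adjusted p = 0.785) at the pre-mid-pachytene stage, -0.27 (-0.77 to 0.22, adjusted p = 0.999) at the mid-late one and -0.14 (-0.54 to 0.27, adjusted p = 0.999) in spermatids. Bcl6 was the 1 member tested for a difference of these changes between germ cell types, and 0 of 3 such tests passed (limma adjusted p of 0.619, 0.707 and 1; 0 had an unadjusted p under 0.05). Among all genes 0.0269%, 0.0135% and 0% passed these tests, and 12.2%, 14.8% and 2.26% had an unadjusted p under 0.05. Igfals, the member with an extra gene copy, stayed between 1.57 and 1.87 in germ cells of either genotype.

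Euploid liver was then set beside the mean of the 3 euploid germ cell groups. Of the 9 members 8 had a group mean high enough to be compared. Bcl6 reached it in liver and germ cells, and Igf1 in liver and in spermatids (mean 4.25). The others reached it through liver alone, so their higher liver level is a description of the list. Apart from Bcl6, the compared members had euploid liver means from 8.26 for Stat5b to 15.95 for Mup3. Their germ cell means ran from 1.66 for Igfals to 3.70 for Igf1. Apart from Igf1 these germ cell readings lie in the background range, so that the differences depend on the floor of the array and have no order. All 8 passed as higher in liver in limma, as did 40.1% of 10818 genes in euploid and 40.5% in trisomic arrays, and nothing is read from that count. Bcl6 was the 1 member well above background in both tissues, with means of 6.11 in liver and 5.01 in germ cells, a difference of 1.10 (SE 0.47, limma adjusted p = 0.046). This difference rested on euploid liver array 1, without which it was 0.27 (adjusted p = 0.2), and it also failed to pass without any 1 of the germ cell arrays (adjusted p of 0.0504 to 0.0759). Cux2 was not compared, with a liver mean of 2.46 and a germ cell mean of 2.74 in the background range.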

How the data were processed

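The authors deposited log2 intensities made with GCRMA, per the submitters' processing notes, whose version and joint normalization are not given in the sources used here. Biotinylated RNA came from 20 to 30 ng of total RNA, per the labels. Of 16539 probe sets 15780 carried 1 symbol each and 759 none. Each gene had 1 probe set. Liver genotypes were compared with limma 3.58.1 (R 4.3.3) on the 6 liver arrays alone, for genes whose liver mean reached 4, two-sided, with Benjamini-Hochberg adjustment. Germ cell genotypes used the 16 germ cell arrays and tissues the 11 euploid arrays in the same way, with 95% confidence intervals. The fits were tested on simulated data. Same-numbered liver arrays deviated together (r of 0.11, 0.31 and 0.15 for numbers 1 to 3 over 6660 genes, each the highest of its number). The labels do not say what a number stands for, and the main liver fit did not use it. The fit with the replicate number as a block is given where calls differ. In germ cells same-number r ran from -0.13 to 0.39 and no cell type had all its pairs above 0.1, so those numbers were not taken as pairs. Lists were summarised by counts and medians, without a test of the list. Named are all members, genes of the signalling and IGF lists, and from other lists genes that passed and up to 4 a direction with the largest difference without overlap, others being marked. The members, lists and motif were chosen with earlier results of these data known. Promoters were searched in python 3.11.15. The number of arrays limits the precision.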

Additional observations from a re-analysis of the deposited data

How the results depend on the processing

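The alternatives were 1 spread over all 22 arrays, quantile normalization, centring on array medians, no filter or a minimum mean of 6, a trended robust spread, the replicate number as a block and leaving out each array. The mean over probe sets was not run, since each gene had 1. On the liver arrays 19 genes passed, 781 with 1 spread over all 22 arrays, 11 with arrays centred, 55 with a minimum mean of 6, 54 with the trended robust spread, and 5 with the replicate block. Leaving out 1 liver array gave 1 to 12. Of the 73 tested genes of the 6 pathway and target lists 3 passed, 36 with 1 spread over all 22 arrays, 2 with the replicate block, and 1 to 4 with 1 array left out. Counts of the lists without trisomic liver replicate 2 or without a filter were added after seeing the data. Without overlap were 38 of the 73, and 32 to 47 under every alternative run, beside 23.1% and 14.8% to 37.4% of all genes. Among the 73 are 6 female-biased genes that reached the minimum mean through the trisomic arrays and 1 male-biased gene that reached it through the euploid ones. The filter thus raises this count, and the lists were chosen with earlier results known, so it is a description only. Sult1e1 passed under every alternative. Among the named genes the replicate block changed no call but those of Lpl, Serpina12 and Ugt2b38. Irs2 passed with a minimum mean of 6 (limma adjusted p = 0.0397), which its trisomic mean of 5.88 alone would not reach. Vldlr passed without euploid liver replicate 3 (adjusted p = 0.0472), and Serpina12 failed to pass without a filter (0.0691). No member passed in germ cells under any alternative run, the replicate block included, and a minimum mean of 6 left none to test. There the Bcl6 difference ran from -0.61 to 0.063 at the mid-late-pachytene stage and from -0.23 to 0.041 in spermatids with 1 array left out, above 0 without trisomic replicate 1 and without euploid replicate 1 respectively, and never past the threshold. Between tissues 8 of 8 members passed with the replicate block and 7 or 8 in every other alternative (without a filter, 7 higher and Cux2 lower). Centring moved the median of all liver genes from -0.01 to -0.13, and against it the Cux2 difference became -0.08. The cause of these shifts was not tested.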

Other observations

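Genes of feeding state, the clock and inflammation were read on the same liver arrays, since growth hormone action varies with them. None of 8 tested fasting genes passed in limma on the 6 liver arrays, and 3 were higher without overlap: the omega-hydroxylase gene Cyp4a14 (difference 2.47, SE 0.85, adjusted p = 0.237), the coactivator gene Ppargc1a (1.47, SE 0.44, adjusted p = 0.194) and the kinase gene Pdk4 (0.83, SE 0.29, adjusted p = 0.244). Ppargc1a passed without euploid liver replicate 1 (1.99, adjusted p = 0.0369). None of 8 tested clock genes passed either, with 3 lower without overlap and 1 higher. Per1 differed by -1.90 (SE 0.57, adjusted p = 0.194), Cry2 by -0.93 (adjusted p = 0.297), Nr1d2 by -0.23 (adjusted p = 0.416) and Arntl by 0.52 (adjusted p = 0.318). Of 12 tested inflammation genes 0 passed and 1, the pentraxin gene Apcs, was higher without overlap (12.03 ± 0.72 and 13.70 ± 0.22, SD, n = 3 each, adjusted p = 0.12). At an unadjusted p under 0.05 there were 3 fasting genes, 2 clock genes and 1 inflammation gene. Among all genes tested 8.88% were higher and 7.47% lower at that p. With 1 spread over all 22 arrays 2, 1 and 1 passed in limma, beside 9.55% of all genes. Without overlap 11.8% of all genes were higher and 11.3% lower, and nothing is read from the counts of these small lists.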
